A study of Homo sapiens with 8 samples.

Results

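Chemokines are small secreted proteins that guide migrating cells, and their receptors are heptahelical proteins that couple to inhibitory G proteins. Endothelial cells secrete chemokines, hold them on surface heparan sulphate, and present them to leukocytes; they also respond to some of them during vessel growth. Atypical receptors bind chemokines without G protein signalling and remove them from the surroundings. The members described here are the 46 protein-coding genes of the deposited table whose names mark them as a chemokine (CXCL, CCL, CX3CL, XCL), a signalling receptor (CXCR, CCR, CX3CR, XCR) or an atypical receptor (ACKR), out of 30386 genes in all, 16828 of them protein-coding. CCRL names and names with a hyphen were left out.

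The cells were endothelial cells differentiated from the human iPSC line WTC-TJP1 and harvested at passage 1: 4 samples of iEC, without further specification, and 4 of iREC, the retinal type. Samples in each group are lettered C to F, per-sample values below follow that order, and no treatment is labelled. The series text calls the differentiations matched without tying this to the letters. All samples come from 1 line, and the labels do not say whether the letters are separate cultures, so the p-values measure only the spread between these samples. The comparison asks how chemokine and receptor mRNA differs between the endothelial types.

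Total counts per sample ran from 13739364 to 16971865, and 3 counts, the floor of detection, equalled 0.178 to 0.215 CPM. All 8 endothelial markers (such as CDH5 and KDR) were present, with summed levels of 6182 to 8150 CPM in iEC and 4018 to 8959 CPM in iREC. CPM is the count scaled to a common library size, here after TMM scaling. The 4 listed genes of retinal neurons and pigment epithelium summed to at most 1.24 CPM in any sample. The iREC F library stood apart from the other iREC libraries: its 11 mural and mesenchymal markers summed to 5556 CPM against 1285 to 2038 CPM, its 6 epithelial markers to 4924 CPM against 301.6 to 1117 CPM, and its endothelial markers gave the lowest sum. Its 5 pluripotency markers summed to 505 CPM, 482 CPM of it LIN28A, against 53.3 to 173 CPM. In bulk samples, fewer cells of a type and less RNA per cell cannot be told apart.

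Of the 46 members, 36 were detected, meaning over 3 counts in at least 1 sample. The 10 silent members included the ligands CXCL13, CCL16, CCL17, CCL28 and CCL4L2 and the receptors CXCR3, CCR2, CCR4 and CCR9. Most silent receptors are known from lymphocytes and monocytes. All 6 CXC chemokines with the ELR motif (glutamate, leucine, arginine before the first cysteines) were detected, as were all 4 atypical receptors, 12 of 16 CC chemokines and 8 of 13 signalling receptors. Together the members took 737 to 986 CPM of the unscaled library total among iEC samples, against 247 to 399 for iREC. The groups did not overlap in this sum. Most of it in iEC was CXCL8, CXCL1 and CXCL5, with 31555, 7274 and 7676 counts over the 4 samples. In iREC these had 3061, 2827 and 1238 counts. Some other members went the opposite way, such as CXCL2 with 879 counts in iEC and 3567 in iREC. The sum therefore does not give the direction of the members in general.

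Only 15 members had enough counts for the all-gene test, and 31 fell below its filter, 21 of them detected. Among the 15, 7 were called at an adjusted p under 0.05 by edgeR's quasi-likelihood test with Benjamini-Hochberg adjustment over all 15330 tested genes. CXCL2 and CCL8 rose in iREC, and CXCL1, CXCL5, CXCL8, CXCR4 and CCR10 fell. The background of calls over all tested genes was 25.0%, with 13.2% higher and 11.7% lower. The groups did not overlap in 3 tested members that were higher in iREC and 5 that were lower, where the background was 14.5% and 14.6% (29.1% in either direction). A member that is high in only 1 group can pass the filter through that group, as CCL8 did, so these counts describe the tested members only. Their median log2 fold change was -0.41, and that of all tested genes was 0.020.

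**Figure D1:**
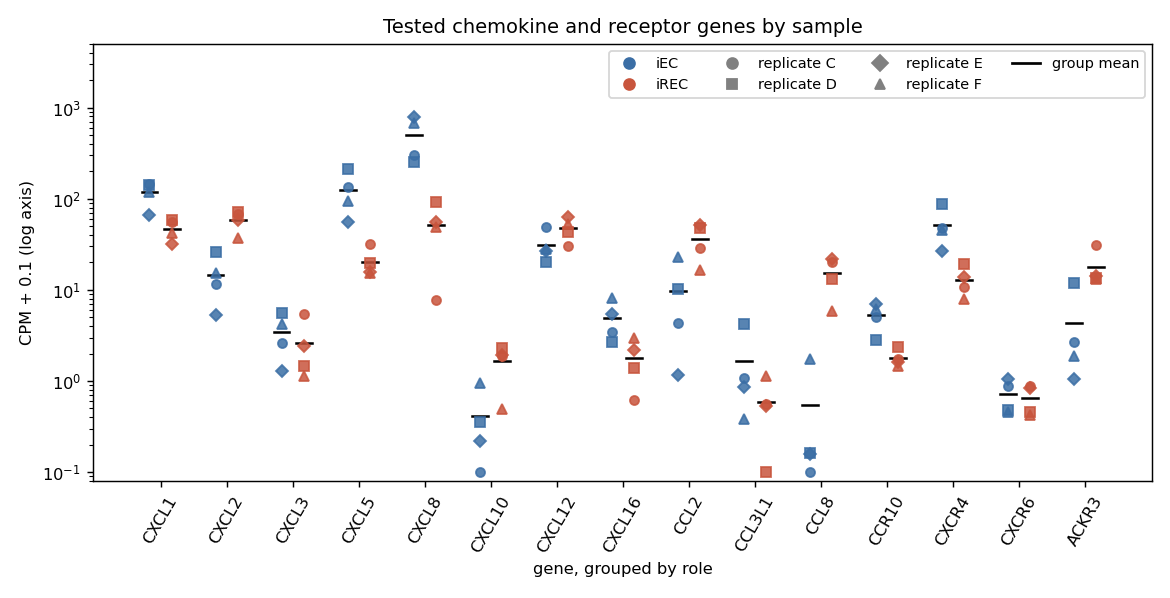
CPM plus 0.1 on a log axis for the 15 tested members in each sample, iEC in blue and iREC in red, with a marker shape for each replicate letter and a black line at the group mean. CXCL8 spans 256 to 790 CPM in iEC and 7.66 to 91.2 CPM in iREC, and CCL8 is at or under 1.65 CPM in every iEC sample.

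The ELR CXC chemokines recruit neutrophils and promote vessel growth through CXCR2, and the highest ligand level in each group was among them. On the per-length FPKM scale, which allows levels of different genes to be compared, the order in iEC was CXCL8 (223 ± 120 FPKM, SD, n = 4), CXCL1 (90.6 ± 27.4), CXCL5 (48.3 ± 25.9) and CXCL2 (9.48 ± 5.63). In iREC CXCL2 (38.5 ± 9.82 FPKM, SD, n = 4) and CXCL1 (35.6 ± 9.17) came first, their levels within each other's spread, followed by CXCL8 (22.01 ± 14.7) and CXCL5 (7.89 ± 2.96). CXCL3 averaged 1.498 FPKM in iEC and 1.11 in iREC, and CXCL6 0.280 and 0.295.

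CXCL8, also known as interleukin 8, fell the furthest of the called members. It had 302, 256, 790 and 682 CPM in iEC and 7.66, 91.2, 56.1 and 48.9 CPM in iREC. Each iREC sample was below each iEC sample, and iREC C was the lowest of all. The log2 fold change was -3.32 ± 0.68 (SE, edgeR adjusted p 0.00705), a 9.95-fold lower level. Without iREC C it was -2.96 (adjusted p 0.00324).

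CXCL5 (epithelial neutrophil-activating peptide 78), a CXCR2 ligand, fell too. Its levels were 133, 214, 55.1 and 94.3 CPM in iEC and 31.5, 19.5, 15.5 and 15.1 CPM in iREC. The highest iREC sample lay below the lowest iEC sample. CXCL5 was 6.08-fold lower in iREC (log2 fold change -2.61, SE 0.42, edgeR adjusted p 0.00204).

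CXCL1, the growth-regulated alpha protein, was lower by a smaller amount. It had 147, 141, 66.7 and 119 CPM in iEC and 55.1, 58.4, 32.0 and 42.1 CPM in iREC. The groups did not overlap, although iEC E and iREC D lay close together. CXCL1 was 2.52-fold lower (log2 fold change -1.34, SE 0.27, edgeR adjusted p 0.00705).

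CXCL2, its close relative, went the opposite way. It had 11.4, 25.7, 5.15 and 15.1 CPM in iEC and 68.0, 71.0, 59.0 and 37.2 CPM in iREC. All iREC samples were above all iEC samples. CXCL2 was 4.10-fold higher (log2 fold change 2.04, SE 0.43, edgeR adjusted p 0.00787). As a ratio of FPKM, CXCL2 over CXCL1 ran between 0.0668 and 0.158 in iEC and between 0.763 and 1.59 in iREC.

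CXCL3 is the remaining growth-regulated relative. It had 2.54, 5.50, 1.18 and 4.15 CPM in iEC and 5.30, 1.36, 2.32 and 1.05 CPM in iREC. The groups overlapped, and a difference was not detected (log2 fold change -0.41 ± 0.60, SE, edgeR adjusted p 0.656). CXCL6, another CXCR2 ligand, was below the filter, with 1 to 17 counts in iEC and 4 to 22 in iREC.

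CXCL1, CXCL2 and CXCL3 are near-copies in part of their sequence, so reads in those parts may have been placed on either gene. Of the 50-base windows in the annotated transcripts, 4.81% of those of CXCL1, 12.5% of those of CXCL2 and 6.01% of those of CXCL3 also occur in another gene. CXCL8 shared 0 of its windows and CXCL5 1.12%.

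CXCL2 took a larger part of the ELR chemokine mRNA in each iREC sample than in any iEC sample. Its share of the summed FPKM of the 6 genes was 2.47%, 5.27%, 0.809% and 2.28% in iEC, and 42.7%, 33.6%, 40.9% and 28.9% in iREC. The share of CXCL8 was 43.1%, 34.6%, 81.8% and 67.9% in the iEC samples and 3.17%, 28.5%, 25.7% and 25.1% in the iREC samples, in the same order. The summed level itself ran from 301 to 453 FPKM in iEC and from 85.3 to 138 FPKM in iREC.

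**Figure D2:**
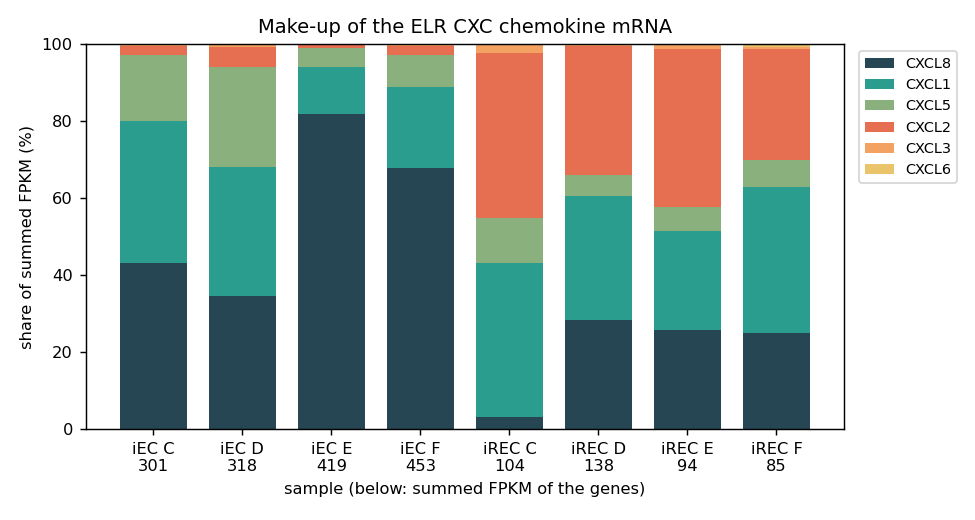
Share of each ELR CXC chemokine in the summed FPKM of the 6 genes (%), by sample, with the summed FPKM under each bar. CXCL2 holds 0.809% to 5.27% in iEC and 28.9% to 42.7% in iREC.

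The 6 genes lie together on chromosome 4 (GRCh38). From the lower coordinate upward the order is CXCL8 (73740506 to 73743716), CXCL6 (73836497 to 73849064), CXCL1 (73869393 to 73871242), CXCL5 (73995642 to 73998779), CXCL3 (74036589 to 74038807) and CXCL2 (74097035 to 74099293). CXCL2, the called rise, is the outermost, 356.5 kb from CXCL8, with its neighbour CXCL3 not called. The called falls CXCL1 and CXCL5 lie between CXCL8 and CXCL3.

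**Figure D3:**
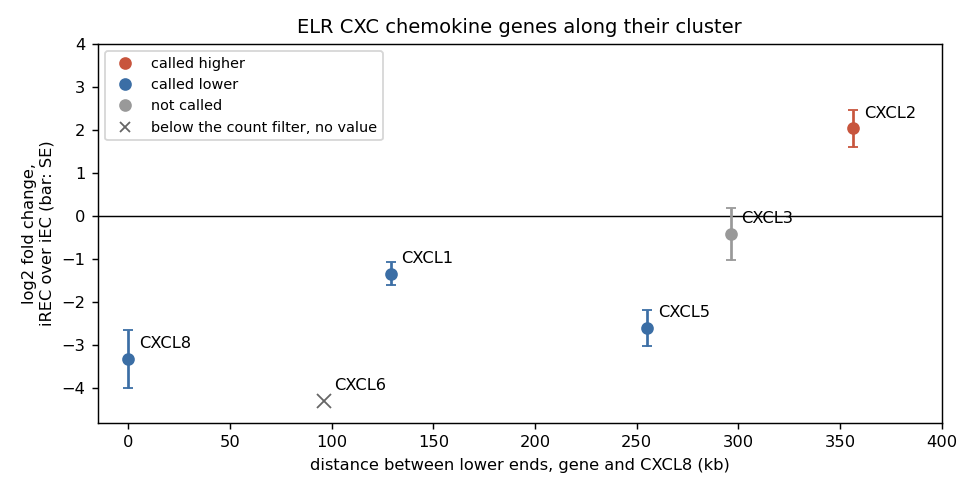
Log2 fold change (iREC over iEC, bar: SE) of the ELR CXC chemokine genes against the distance in kb between the lower end of each gene and that of CXCL8. CXCL8, CXCL1 and CXCL5 lie below 0 and CXCL2 above it; the cross marks CXCL6, which was below the count filter and has no value.

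The promoters of these genes are shown because the genes share a promoter element but not a direction of change. A 9-letter core, GGAATTTCC, to which NF-kappa-B (a transcription factor of inflammatory signalling) is known to bind, was found in the RefSeq promoter window (250 bases before to 50 after the start) of 6 of 6 ELR genes. Both strands were searched, and 0.461% of 35116 promoter windows hold it. This 9-letter form is one that all 6 genes share. The stretches of CXCL1, CXCL2 and CXCL3 are near-copies, as are those of CXCL5 and CXCL6. The 6 matches are therefore not independent, and the share carries no test. The capitals mark the core in 30-base stretches, written on the strand of each gene:
CXCL8: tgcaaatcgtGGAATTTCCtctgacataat
CXCL6: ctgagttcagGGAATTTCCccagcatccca
CXCL1: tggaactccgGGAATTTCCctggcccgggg
CXCL5: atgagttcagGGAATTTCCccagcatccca
CXCL3: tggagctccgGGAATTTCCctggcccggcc
CXCL2: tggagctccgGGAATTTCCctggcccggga
In GRCh38.p14 the stretches are chr4:73740468-73740497 for CXCL8, chr4:73836579-73836608 for CXCL6 and chr4:73869305-73869334 for CXCL1, all on the plus strand. Those on the minus strand are chr4:73998748-73998777 for CXCL5, chr4:74038748-74038777 for CXCL3 and chr4:74099253-74099282 for CXCL2. Counted from the RefSeq start, the core begins at base -91 in CXCL8, -90 in CXCL5, -89 in CXCL6, -78 in CXCL1 and CXCL3, and -77 in CXCL2. The fuller NF-kappa-B consensus, which overlaps the core, matched 5 of the 6 (CXCL8 being without a match) and 11.3% of all promoter windows. Of the 28 members with a promoter sequence, CXCL10 and CXCL11 also held the 9-letter core. CXCL10 and the receptor XCR1 matched the interferon-stimulated response element, as did 3.57% of promoter windows, and CXCL11 did not. The hypoxia response element core ACGTG matched 4 of the 28 members and 0 of the 6 ELR genes, against 21.4% of promoter windows.

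The interferon-induced ligands of CXCR3, which attract T cells and restrain vessel growth, were low. CXCL10 had 0, 0.253, 0.118 and 0.859 CPM in iEC and 1.77, 2.21, 1.83 and 0.393 CPM in iREC. The iREC samples C, D and E were above every iEC sample, while iREC F overlapped them. It was not called (edgeR adjusted p 0.0768) at a log2 fold change of 2.34 ± 0.86 (SE). It passed without iREC F (adjusted p 0.0384), without iEC F (log2 fold change 3.55, adjusted p 0.0245) and by DESeq2 with all samples (0.0387). The other 6 fits that left out a sample did not call it. Neither did limma-voom (0.0617) or edgeR with the replicate letter as a block (0.144). CXCL11 had at most 3 counts in each iEC sample and 2 to 16 counts in iREC, below the filter.

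Of the other CXC ligands, CXCL12 and CXCL16 were tested. CXCL12 (stromal cell-derived factor 1; chromosome 10, 44370165 to 44386493) binds both CXCR4 and the atypical receptor ACKR3. It had 49.3, 19.97, 26.8 and 27.8 CPM in iEC and 30.2, 42.8, 62.7 and 52.6 CPM in iREC. The groups overlapped through iEC C, and the log2 fold change of 0.60 ± 0.30 (SE) was not called (edgeR adjusted p 0.179). Without iEC C it was 0.91 (adjusted p 0.0450), and the other 7 fits that left out a sample did not call it.

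CXCL16 is a membrane-bound scavenger receptor that can be shed, and it is the ligand of CXCR6. It had 3.32, 2.59, 5.33 and 8.02 CPM in iEC and 0.523, 1.29, 2.08 and 2.88 CPM in iREC. The groups overlapped in iEC D and iREC F, and the log2 fold change of -1.5 ± 0.53 (SE) was not called (edgeR adjusted p 0.0692). It passed by DESeq2 (adjusted p 0.0223), without iREC F (edgeR adjusted p 0.0354) and with iREC E and F left out together (0.0440). The edgeR fit with the replicate letter as a block also called CXCL16 (0.0225). It was not called by limma-voom (adjusted p 0.0663) or in the other 7 fits that left out a sample. MED11, which overlaps CXCL16 on the opposite strand at 6.90 CPM in iEC and 7.32 CPM in iREC, makes its counts uncertain, since no source used here says whether counting used the strand. Its receptor CXCR6 ran from 0.358 to 0.947 CPM in iEC and from 0.328 to 0.785 CPM in iREC and was not called (edgeR adjusted p 0.843) at a log2 fold change of -0.16 ± 0.50 (SE). The sign of CXCR6 changed without iEC E (to 0.13) or without iREC F (to 0.017), and FYCO1 overlaps it on the opposite strand at 78.2 CPM in iEC.

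Among CC chemokines, the monocyte attractant CCL8 (monocyte chemotactic protein 2; chromosome 17, 34319036 to 34321402) rose in iREC. It had 0, 0.0632, 0.0592 and 1.65 CPM in iEC and 20.1, 13.0, 21.7 and 5.70 CPM in iREC. All iREC samples lay above all iEC samples, with iEC F the highest of its group and iREC F the lowest of its own. The log2 fold change was 5.14 ± 1.03 (SE, edgeR adjusted p 0.00653). Its size rests on iEC F, which held 23 of the 25 iEC reads: without that sample it was 8.25 (adjusted p 0.000447), against iEC samples with 0 or 1 read.

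CCL2 (monocyte chemotactic protein 1) varied widely within iEC. It had 4.23, 10.2, 1.07 and 22.9 CPM in iEC and 28.8, 47.8, 51.8 and 16.2 CPM in iREC. Only iEC F and iREC F overlapped. The log2 fold change of 1.92 ± 0.75 (SE) was not called (edgeR adjusted p 0.0922). Without iEC F it was 2.81 (edgeR adjusted p 0.0254), and without iREC F it was 2.16 (adjusted p 0.0642). With all samples, limma-voom called CCL2 (adjusted p 0.0358). DESeq2 (0.109) and edgeR with the replicate letter as a block (0.113) did not. Of the 8 fits that left out a sample, 7 did not call it.

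CCL2, CCL7, CCL8, CCL13 and CCL1 are neighbours within 105.1 kb on chromosome 17, counted between the lower ends of CCL2 and CCL1. CCL13 (monocyte chemotactic protein 4) and CCL1, which binds CCR8, had 0 counts in every iEC sample. CCL1 had 8, 9, 14 and 14 counts in iREC, and CCL13 had 1, 10, 8 and 3. The iREC mean of CCL1 was 3.42-fold the highest iEC floor of 3 counts, and that of CCL13 was 1.71-fold. CCL13 itself did not exceed 3 counts in iREC C and F. CCL7 (monocyte chemotactic protein 3) had 0 to 19 counts in iEC and 2 to 23 in iREC, so its groups overlapped.

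Fibroblasts, mural cells and macrophages are other known sources of the monocyte attractants. The mural and mesenchymal markers summed to 231.4 to 449.2 CPM in iEC and to 1285 to 5556 CPM in iREC, 3 of 9 tested genes being called higher and RGS5 lower. CCL8 and CCL2 were lowest among iREC samples in iREC F, where that sum was highest, and without iREC F the log2 fold change of CCL8 was 5.42 (edgeR adjusted p 0.00397). The 8 blood and myeloid markers summed to 25.0 to 47.6 CPM in iEC and 16.8 to 20.02 CPM in iREC, mostly RUNX1, with SPI1, CD14, CD68 and ITGAM each at or under 0.129 CPM on average in both groups. The macrophage markers AIF1 (0.130 CPM in iEC, 0.587 in iREC) and CSF1R (0.473 and 0.623) had too few counts for the test. PTPRC, the pan-leukocyte marker, had 0 counts in iEC and 1.63 ± 0.845 CPM (SD, n = 4) in iREC. It was called higher in iREC (log2 fold change 7.655, edgeR adjusted p 0.00243), and RUNX1 was called lower (adjusted p 0.0131). With 0 counts in iEC, the fitted value of PTPRC is not a measured ratio, and PTPRC passed the filter through iREC alone. The part of mesenchymal or blood cells in these results was not tested.

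Further along chromosome 17, CCL14 and CCL23, ligands of CCR1, were detected mainly in iREC. CCL23 had 5, 3, 8 and 2 counts in iEC and 4, 27, 49 and 34 in iREC, so iREC C fell within the iEC range. CCL14 had 0 counts in all iEC samples and 2, 6, 9 and 6 in iREC. Its iREC mean was 1.75-fold the highest iEC floor of 3 counts. CCL3 (macrophage inflammatory protein 1-alpha) went the other way, with 5, 7, 6 and 2 counts in iEC and 0 in every iREC sample. Its iEC mean was 1.48-fold the highest iREC floor of 3 counts.

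When the filter on low counts was dropped, 13 members were called, 7 higher and 6 lower, against a background of 12.8% of 30386 genes. ACKR3 was among the higher calls (edgeR adjusted p 0.0406). The 5 below-filter members among them were CCL1, CCL13, CCL14 and CCL23, higher (edgeR adjusted p 0.00222, 0.0297, 0.0181 and 0.0196), and CCL3, lower (0.0231). The authors' deposited table lists adjusted p-values under 0.05 for 17 members, 9 higher and 8 lower in iREC, including these 5. The share of all genes under 0.05 in that table was not computed. DESeq2 run here on the same counts called 4954 genes in all, so the 17 are not read as a result about the members. The authors' table lists no p-value for ACKR3, which is not among its 17 calls. In the authors' deposited table CX3CL1 (0.0280) and CXCL11 (0.0304) are also higher, and ACKR2 (0.0302) lower.

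CCL3L1, a copy of CCL3 that varies in number between genomes, had 0.975, 4.17, 0.770 and 0.286 CPM in iEC and 0.458, 0, 0.428 and 1.05 CPM in iREC. The groups overlapped and the log2 fold change of -1.66 ± 0.95 (SE) was not called (edgeR adjusted p 0.236). Without iEC D, the highest sample, it was -0.48. CCL3 and CCL3L1 share about 5.02% of 50-base windows of CCL3L1, so reads may have been split between them.

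The remaining detected ligands stayed at low counts. CCL5 (RANTES), which attracts T cells, had 0 to 10 counts in iEC and 2 to 6 in iREC. CCL20, the CCR6 ligand, had 3 to 18 and 1 to 8 counts. CCL4 had 0 to 4 counts in iEC and at most 1 in iREC. CX3CL1 (fractalkine), a membrane-anchored chemokine of activated endothelium, had 0 to 4 counts in iEC; iREC samples had 4 to 39, with iREC E highest. XCL1 had 0 to 3 counts in iEC and 1 to 4 in iREC. None of these had groups that stood apart.

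Of the receptors, CXCR4 (chromosome 2, 136114349 to 136118165), the signalling receptor for CXCL12 and a marker of endothelial tip cells, was the most abundant in iEC (23.2 ± 11.4 FPKM, SD, n = 4), while in iREC ACKR3 (7.76 ± 3.81 FPKM) and CXCR4 (5.65 ± 2.13 FPKM) lay within their spread. CXCR4 had 47.6, 88.5, 26.9 and 45.0 CPM in iEC and 10.5, 19.2, 13.7 and 7.80 CPM in iREC. Every iREC sample was below every iEC sample. CXCR4 was 4.06-fold lower (log2 fold change -2.02, SE 0.39, edgeR adjusted p 0.00503).

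ACKR3 (chromosome 2, 236567787 to 236582358), the atypical receptor that takes up CXCL12, ran in the other direction. It had 2.60, 11.7, 0.947 and 1.79 CPM in iEC and 31.0, 13.3, 13.99 and 13.1 CPM in iREC. The groups did not overlap, but iEC D came close to iREC D, E and F. The log2 fold change of 2.06 ± 0.71 (SE) was not called by edgeR with group as the only term (adjusted p 0.0627), whereas DESeq2 (0.00741) and limma-voom (0.0153) called it. Without iEC D it was 3.31 (edgeR adjusted p 0.00189), and without iREC C it was 1.65 (adjusted p 0.145). Of the 8 fits that left out a sample, 7 did not call ACKR3. With all samples and the replicate letter as a block, edgeR called ACKR3 (log2 fold change 2.625, adjusted p 0.0351).

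Set side by side per length, the balance of the receptors differed without overlap. The ratio of ACKR3 to CXCR4 FPKM was 0.0538, 0.130, 0.0346 and 0.0392 in iEC and 2.89, 0.681, 1.002 and 1.66 in iREC. CXCR4 exceeded ACKR3 in all iEC samples and in iREC D, and ACKR3 exceeded CXCR4 in iREC C and F, with iREC E close to parity. The ratio of CXCL12 to CXCR4 FPKM ran between 0.0826 and 0.380 in iEC and between 0.815 and 2.47 in iREC. These ratios were formed from members already compared and carry no test of their own.

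**Figure D4:**
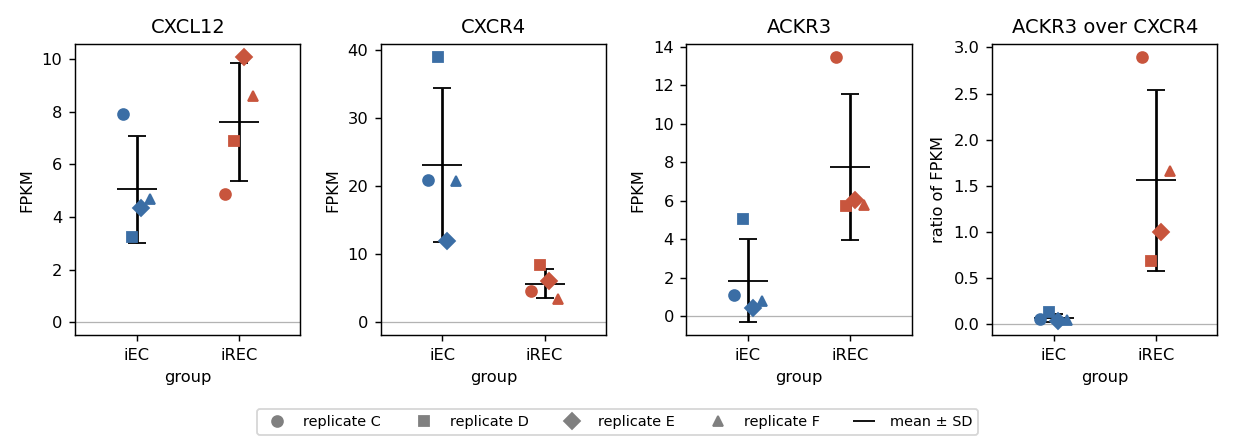
FPKM of CXCL12, CXCR4 and ACKR3 and the ratio of ACKR3 to CXCR4 FPKM by sample, with the group mean and SD in black and a marker shape for each replicate letter. The ratio is at most 0.130 in iEC and at least 0.681 in iREC, while CXCL12 overlaps between the groups.

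CCR10, the receptor for CCL27 and CCL28, fell. It had 4.94, 2.72, 6.93 and 6.01 CPM in iEC and 1.64, 2.28, 1.53 and 1.38 CPM in iREC. The groups did not overlap, and the log2 fold change was -1.59 ± 0.34 (SE, edgeR adjusted p 0.00909). CNTNAP1, which overlaps CCR10 on the opposite strand, was far more abundant and fell as well, from 116 to 48.9 CPM (log2 fold change -1.25, edgeR adjusted p 0.00186), so reads of the pair cannot be told apart without strand and the CCR10 value is uncertain.

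CXCR2, the receptor of the ELR chemokines, was near the floor, with 0 to 6 counts in iEC and 6, 0, 0 and 0 counts in iREC. CCR7, the receptor for CCL19 and CCL21, had 0 to 14 counts in iEC and 0 to 12 in iREC. CCR1 and XCR1 reached at most 4 counts and CX3CR1, the fractalkine receptor, at most 5 in any sample. No difference in these 5 receptors was detectable at this depth.

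The other atypical receptors were scarce. ACKR1 (the Duffy antigen receptor, a marker of venules) had 4, 1, 0 and 0 counts in iEC and 20, 7, 4 and 3 in iREC, so the groups overlapped between iEC C and iREC E and F. CADM3, which overlaps ACKR1 on the same strand, rose from 0.381 to 3.70 CPM (edgeR adjusted p 0.00829). ACKR2, which clears inflammatory CC chemokines, had 7, 7, 13 and 3 counts in iEC and 0, 1, 0 and 2 in iREC. Those ACKR2 groups did not overlap, but it was not called without a filter (edgeR adjusted p 0.0553). ACKR4, which binds CCL19, CCL21 and CCL25, had 2 to 6 counts in iEC and 3 to 11 in iREC, and 32.4% of its 50-base windows also occur in the pseudogene CCRL1P1.

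**Figure D5:**
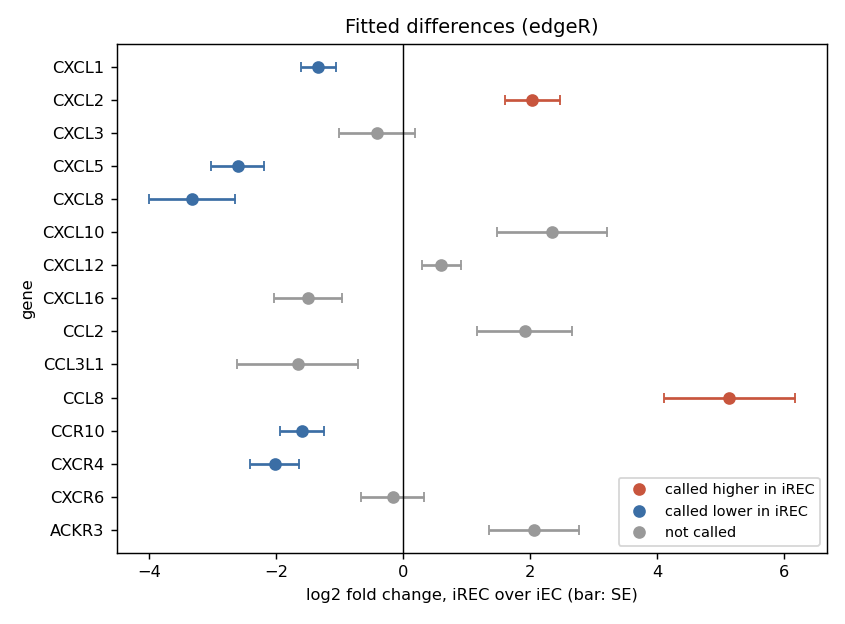
Fitted log2 fold changes (iREC over iEC, bar: SE) of the 15 tested members, ordered by role, with calls at an adjusted p under 0.05 coloured. CXCL2 and CCL8 are called higher, CXCL1, CXCL5, CXCL8, CCR10 and CXCR4 lower, and 8 members are not called.

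Genes that act around the members were read from lists. Of the receptor signalling list, 30 of 32 genes were tested, 4 called higher and 14 lower (median log2 fold change -0.40). Over all tested genes 25.0% were called, 13.2% higher and 11.7% lower, which is the background for each list here. GNG2, a G protein gamma subunit, fell from 66.6 ± 12.2 to 1.69 ± 0.643 CPM (both SD, n = 4; edgeR adjusted p 1.54e-05, log2 fold change -5.30 with SE 0.30). PIK3CG, the lipid kinase activated by G protein beta-gamma subunits, fell from 27.0 ± 9.51 to 0.616 ± 0.413 CPM (edgeR adjusted p 8.87e-05), and RAC2, a migration GTPase best known from blood cells, from 168 ± 84.1 to 13.0 ± 9.504 CPM (0.00190). GNAI2, the inhibitory G alpha subunit most used by chemokine receptors, fell from 1318 ± 326.6 to 597 ± 76.8 CPM (0.00222). GNG12 increased from 88.4 ± 26.9 to 270.6 ± 31.3 CPM (edgeR adjusted p 0.000760). PLCB4 and ELMO1 also rose, with log2 fold changes of 1.72 and 1.011.

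Of the desensitization list, 13 of 16 genes were tested, 1 called higher and 3 lower (median log2 fold change -0.037), a share near the background of 25.0%. The receptor kinases went opposite ways: GRK3 rose from 5.10 ± 2.36 to 29.7 ± 9.22 CPM and GRK5 fell from 113 ± 25.3 to 32.1 ± 4.17 CPM (± SD over 4 samples; edgeR adjusted p 0.00129 and 0.000171). RGS10 and RGS5, which shorten G protein signals, fell, with log2 fold changes of -1.98 and -1.396. The arrestins ARRB1 and ARRB2, which take receptors inside, were not called, at 186 and 26.3 CPM in iEC and 197.5 and 20.6 CPM in iREC.

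The NF-kappa-B list holds regulators of many inflammatory chemokines and also the cytokine genes IL6, CSF2, CSF3 and LIF. It had 1 gene called higher and 2 lower of 19 tested (median log2 fold change -0.14). TNFAIP3, a feedback inhibitor, rose from 13.6 ± 3.92 to 32.9 ± 10.5 CPM (± SD over 4 samples; edgeR adjusted p 0.00729). NFKBIE, an inhibitor of the same family as NFKBIA, fell from 34.6 to 17.5 CPM (0.00138), and CSF3, a neutrophil growth factor, from 4.62 ± 2.55 to 0.0491 ± 0.0627 CPM (0.000655). The subunit genes NFKB1 and RELA were not called, with log2 fold changes of -0.07 ± 0.14 and -0.27 ± 0.12 (SE; edgeR adjusted p 0.746 and 0.123).

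Heparan sulphate binds chemokines at the cell surface. Of 20 tested genes on that list, 7 were called higher and 2 lower (median log2 fold change 0.58). The sulphatases that trim heparan sulphate changed in opposite directions: SULF1 rose from 10.7 ± 12.1 to 496.5 ± 69.7 CPM (both SD, n = 4; edgeR adjusted p 0.00236, log2 fold change 5.54 with SE 0.91), and SULF2 fell from 927 ± 212 to 98.8 ± 14.9 CPM (-3.23 ± 0.20, SE, adjusted p 2.03e-05). The glypican core proteins GPC4 and GPC6 rose from 0.783 to 30.4 CPM and from 16.9 to 233 CPM (edgeR adjusted p 7.15e-05 and 0.00110). NDST1, which starts sulphation, fell from 569.5 ± 57.5 to 321 ± 14.6 CPM (0.000954).

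Of 13 tested genes for chemokine processing and related ligands or receptors, 2 were called higher and 4 lower (median log2 fold change 0.10). CCRL2, an atypical receptor-like protein that holds chemerin, fell from 8.62 ± 1.21 to 0.378 ± 0.144 CPM (both SD, n = 4; edgeR adjusted p 4.51e-05, log2 fold change -4.48 with SE 0.33). The matrix proteases MMP1 and MMP2 fell. MMP1 went from 5715 ± 3029 to 122 ± 88.5 CPM and MMP2 from 47.8 ± 14.2 to 6.69 ± 2.04 CPM (edgeR adjusted p 0.000617 and 0.000203). CTSG, a serine protease of neutrophil granules, had at most 0.253 CPM in iEC and 18.1, 9.42, 10.4 and 1.97 CPM in iREC (edgeR adjusted p 0.00119). PITPNM3, reported as a receptor for CCL18, rose from 18.0 ± 5.35 to 210 ± 86.3 CPM (edgeR adjusted p 0.000267). DPP4, the protease that inactivates CXCL12, was not called, with 59.0 CPM in iREC F against at most 12.6 CPM in the other iREC samples.

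The 7 calls among the members held in each of the 8 fits that left out a sample, with edgeR adjusted p of up to 0.0325. With iREC E and F left out together, which leaves 2 iREC samples, 4 of them held, and CXCL8, CXCL1 and CCR10 were not called (edgeR adjusted p 0.0651, 0.0607 and 0.0827), at log2 fold changes of -3.36, -1.06 and -1.39. The number of members called higher, 2 with all samples, was 4 without iEC C, iEC D, iEC E or iREC C and 5 without iEC F.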

How the data were processed

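Messenger RNA from 8 samples was sequenced after poly-T selection with a dUTP second strand, per the labels' protocols. The authors deposited raw read counts per gene, per the file headers. The submitters' processing notes name fastp, HISAT2 2.0.5 and build hg38; the counting program and its strand setting are not given in the sources used here. The deposited normalized signal columns equal the count divided by a constant per sample, and the deposited FPKM columns scale that by gene length. The deposited log2 fold changes and p-values come from the authors and are quoted only where named. GENCODE release 29 holds each of the 30386 genes under the same identifier and coordinates.

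Counts were tested with edgeR 4.0.16 (filterByExpr, TMM scaling, quasi-likelihood F-test, group as the only term, all 8 samples, Benjamini-Hochberg adjustment), after a test on simulated data. CPM values use TMM-scaled libraries; SE was derived from the coefficient and F. Lower bounds use 3 counts per library. The labels name no molecular identifiers; floors therefore cover counting error only. Promoter windows come from RefSeq on GRCh38.p14; 28 of 46 members matched.

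All detected members were named. Members below the filter were given mainly by counts, with ratios to the floor or values of the fit without a filter where stated. Not every silent member is reported here by name. From each surrounding list, up to 3 called genes per direction with at least 1 CPM in a group and the largest changes were named; GNAI2, ARRB1, ARRB2, NFKB1, RELA and DPP4 were named after their values were seen. The members and lists were chosen with earlier results of these data known. Alternatives were other scalings, filters and tools (DESeq2 1.42.0, limma-voom in limma 3.58.1), the replicate letter as a block, protein-coding genes only and samples left out.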

Additional observations from a re-analysis of the deposited data

Results flagged for a closer look

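Within each group of 4 samples, the distance of the extreme sample from its nearest neighbour was set against Dixon's 95% critical value. Of 30 groups (15 tested members in both cell types), 3 exceeded it; chance gives about 1 in 20. CCL8 in iEC F, at 1.65 CPM, lay far above the other iEC samples (at most 0.0632 CPM), with a gap of 0.962 of the range. ACKR3 in iEC D, at 11.7 CPM, exceeded the other iEC samples (0.947 to 2.60 CPM), with a gap of 0.846. ACKR3 in iREC C, at 31.0 CPM, exceeded the other iREC samples (13.1 to 13.99 CPM), with a gap of 0.950.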

How the results depend on the processing

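The number of members called higher in iREC was 2 in the edgeR fit with all samples. It was 7 without a filter, 10 by DESeq2 and 4 by limma-voom, and ran from 2 to 5 over the 8 fits that left out a sample (4 without iEC C, D or E or iREC C, 5 without iEC F). The number called lower was 5; it was 8 by DESeq2, 3 with iREC E and F left out together, and from 5 to 6 with a sample left out. Over all genes, 3829 were called by edgeR with all samples, 3887 without a filter, 4954 by DESeq2 and 3773 by limma-voom. That number was 2541 with iREC E and F left out together, and from 2660 to 4214 with a sample left out. The number of detected members was 36 at over 3 counts in a sample, 46 at over 0, 26 at over 10, and 32 at over 3 in at least 2 samples.

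Signs reversed for CXCL3 with iREC E and F left out together (0.0011, adjusted p 0.999) and for CXCR6, whose log2 fold change ran from -0.379 to 0.1261 with a sample left out (without iEC E 0.1261, without iREC F 0.01734). Scaling by DESeq2 size factors, upper quartile or library size only changed none of the 15 members' calls. Whether the replicate letters pair the samples was not settled by the labels or the values: the correlation of same-lettered deviations from the group means was 0.168, -0.0794, 0.0291 and 0.25 for C, D, E and F. With the replicate block, 3 members were called higher and 6 lower, and 3334 genes in all; CXCL16 (adjusted p 0.0225) and ACKR3 (0.0351) were added. Below the filter, counts near 3 per library set the limit.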
